A study of Mus musculus with 15 samples.

Results

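Transcripts of 38 genes of macrophages, the complement cascade and antigen presentation were followed in the tibialis anterior, a fast muscle of the lower leg, of 15 male 129Pas mice aged 7 weeks. The genes were chosen by symbol, as markers of tissue macrophages and monocytes, their chemokines and activating receptors, complement components, and the class I and class II molecules of the major histocompatibility complex (MHC). All 38 symbols were found among the 30672 genes of the count table, and all 38 passed the filter on low counts, as did 15533 genes in all. The groups were untreated wild type (WT, n = 4), wild type given tamoxifen (WT + TAM, n = 4), untreated Mtm1-/y (n = 4) and Mtm1-/y given tamoxifen (Mtm1-/y + TAM, n = 3). Mtm1-/y males carry no functional copy of the X-linked gene encoding myotubularin, a phosphoinositide phosphatase, and serve as a model of X-linked myotubular myopathy. As a constitutive mutation it is present in muscle and in blood-derived cells alike. Tamoxifen is a selective modulator of oestrogen receptors, for which no dose or schedule was found in the labels. The series asks whether it acts as a treatment in these mutants, and every group was of the same strain, sex and age.

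Macrophages settle in muscle from blood monocytes, take up debris into lysosomes, and show peptides of what they digested on MHC class II molecules, where T helper cells read them. Class I molecules sit on nearly all nucleated cells and present peptides made inside the cell. Complement C1q is made largely by macrophages in many tissues, recognises antibody, debris and dying cells, and starts the cascade in which C4 and C3 are cut. In healthy muscle these cells are few and lie between the fibres, and they increase after injury and in dystrophic muscle.

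Total counts per library ranged from 18042558 to 45823277. *Mtm1* itself was at 14.9 to 15.6 CPM (counts scaled to a common library total) in WT, 13.5 to 17.7 CPM in WT + TAM, only 2.91 to 3.63 CPM in Mtm1-/y, and 3.04 to 3.71 CPM in Mtm1-/y + TAM, as the genotype labels say. The tissue label was borne out by 8 muscle fibre markers, which summed to between 165879 and 273372 CPM. Among the mutants, replicate 1 of the untreated group was the lowest of its 4 libraries for 28 of the 38 genes and the highest for 3, where 36.1% and 34.3% of all tested genes had it lowest and highest. Among WT + TAM mice, replicate 1 held 22.7 CPM of *Spp1* where the other 3 held at most 0.968 CPM. Its summed fibroblast markers reached 3149 CPM and its summed adipocyte markers 10133 CPM, the highest of their group. Members whose call changed without either library are named beside the result. No batch, date or litter is named in the labels.

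The class II and class I genes described here include neighbours on chromosome 17 that are known to share short promoter elements, so the promoters of 2 genes of each class are shown. Sequences are from RefSeq on GRCm38.p6, 250 bases before to 50 bases after the annotated transcript start, on the strand of the gene. Capitals mark the 8 letters CTGATTGG, a form of the Y box bound by the factor NF-Y, or their reverse complement. *H2-K1* and *H2-D1* hold the reverse complement, and whether it serves as their Y box was not tested. The H2-Aa window is chr17:34287774-34288073 on the minus strand, and H2-Eb1 is chr17:34305617-34305916 on the plus strand. The H2-K1 window is chr17:34000284-34000583 on the minus strand, the farther along the gene of its 2 listed starts, and H2-D1 is chr17:35262844-35263143 on the plus strand.
H2-Aa: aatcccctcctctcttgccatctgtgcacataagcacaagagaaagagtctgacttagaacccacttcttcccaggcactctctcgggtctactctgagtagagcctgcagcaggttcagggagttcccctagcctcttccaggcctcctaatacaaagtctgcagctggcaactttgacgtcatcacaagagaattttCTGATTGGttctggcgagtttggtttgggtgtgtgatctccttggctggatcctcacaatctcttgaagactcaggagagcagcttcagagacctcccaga
H2-Eb1: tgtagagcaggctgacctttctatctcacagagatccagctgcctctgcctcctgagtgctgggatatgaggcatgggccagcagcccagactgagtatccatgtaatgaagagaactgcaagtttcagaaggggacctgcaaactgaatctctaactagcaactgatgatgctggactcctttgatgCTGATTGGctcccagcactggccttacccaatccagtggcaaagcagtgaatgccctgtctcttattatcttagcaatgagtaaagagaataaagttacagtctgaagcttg
H2-K1: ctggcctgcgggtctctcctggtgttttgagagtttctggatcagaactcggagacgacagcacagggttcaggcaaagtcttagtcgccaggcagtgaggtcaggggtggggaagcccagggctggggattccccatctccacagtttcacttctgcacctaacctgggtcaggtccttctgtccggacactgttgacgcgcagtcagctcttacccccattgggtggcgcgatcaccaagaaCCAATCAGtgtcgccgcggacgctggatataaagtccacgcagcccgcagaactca
H2-D1: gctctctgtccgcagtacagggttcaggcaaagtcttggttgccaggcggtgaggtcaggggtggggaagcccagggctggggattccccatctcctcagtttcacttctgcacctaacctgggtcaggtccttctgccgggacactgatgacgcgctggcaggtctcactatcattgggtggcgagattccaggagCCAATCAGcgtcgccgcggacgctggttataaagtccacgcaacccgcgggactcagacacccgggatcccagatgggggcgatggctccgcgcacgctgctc
The motif begins 51 bases before the start in *H2-Aa*, 62 in *H2-Eb1*, 6 in *H2-K1* and 53 in *H2-D1*. In *H2-K1* its 8 letters run across the listed start, and the distance depends on which listed start is used. The motif was present in at least 1 window of 5 of the 29 members with a listed window, these 4 and *Spp1*. Among all 32851 windows 4.10% held it, a share of windows and not of genes, which can have several. The match describes the sequence only.

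Between genes, levels were compared per kilobase of exon. In WT muscle the class I genes led, with *B2m*, the light chain shared by all class I molecules, at 49.7 ± 7.21, *H2-D1* at 17.5 ± 2.23 and *H2-K1* at 13.8 ± 2.02 CPM per kilobase (mean ± SD, n = 4). *Cd74*, the invariant chain that fills the class II groove until it reaches the lysosome, followed at 9.81 ± 3.90, a spread that overlapped that of *Lyz2*, macrophage lysozyme, at 8.63 ± 2.57. Lineage genes were far lower, with *Cd68* at 1.27 ± 0.659, *Csf1r* at 1.09 ± 0.316 and *Ptprc*, the pan-leukocyte phosphatase CD45, at 0.0601 ± 0.0310. *Trem2* was the lowest of the 38, at 0.0466 ± 0.0364. At these depths *Ccl2*, *Fcgr1* and *Aif1* had under 25 counts in every library. *Ccl2* had 0 in WT + TAM replicate 4 and *Fcgr1* had 0 in Mtm1-/y replicate 3, a count that allows up to 3.

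Untreated mutants were compared with untreated WT to ask how the absence of myotubularin was reflected in these genes. Of the 38 genes, 13 rose in Mtm1-/y and 0 fell, at an adjusted p under 0.05 in edgeR's quasi-likelihood test, with Benjamini-Hochberg adjustment over all tested genes. Among all tested genes 30.4% were called in either direction and 15.5% were called higher. All 4 class II genes rose by 2.59 to 3.37-fold, and the largest changes were in *Gpnmb* and *Lgals3*, at 8.18 and 6.57-fold. DESeq2 also called all 4 class II genes, while limma-voom called 2 of the 4. None of the 5 complement genes or 3 class I genes was called by edgeR, DESeq2 or limma-voom, and by edgeR 0 of these 8 had an unadjusted p under 0.05, as 41.6% of all tested genes did. The median log2 fold change (log2FC) of the 38 genes was 0.68, beside 0.00047 for all tested genes, and 33 of the 38 were above 0. In a whole-muscle extract, more cells of a type and more RNA per cell cannot be told apart. Values are CPM in order of replicate number, and log2FC is given ± the standard error of the fit.

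**Figure D1:**
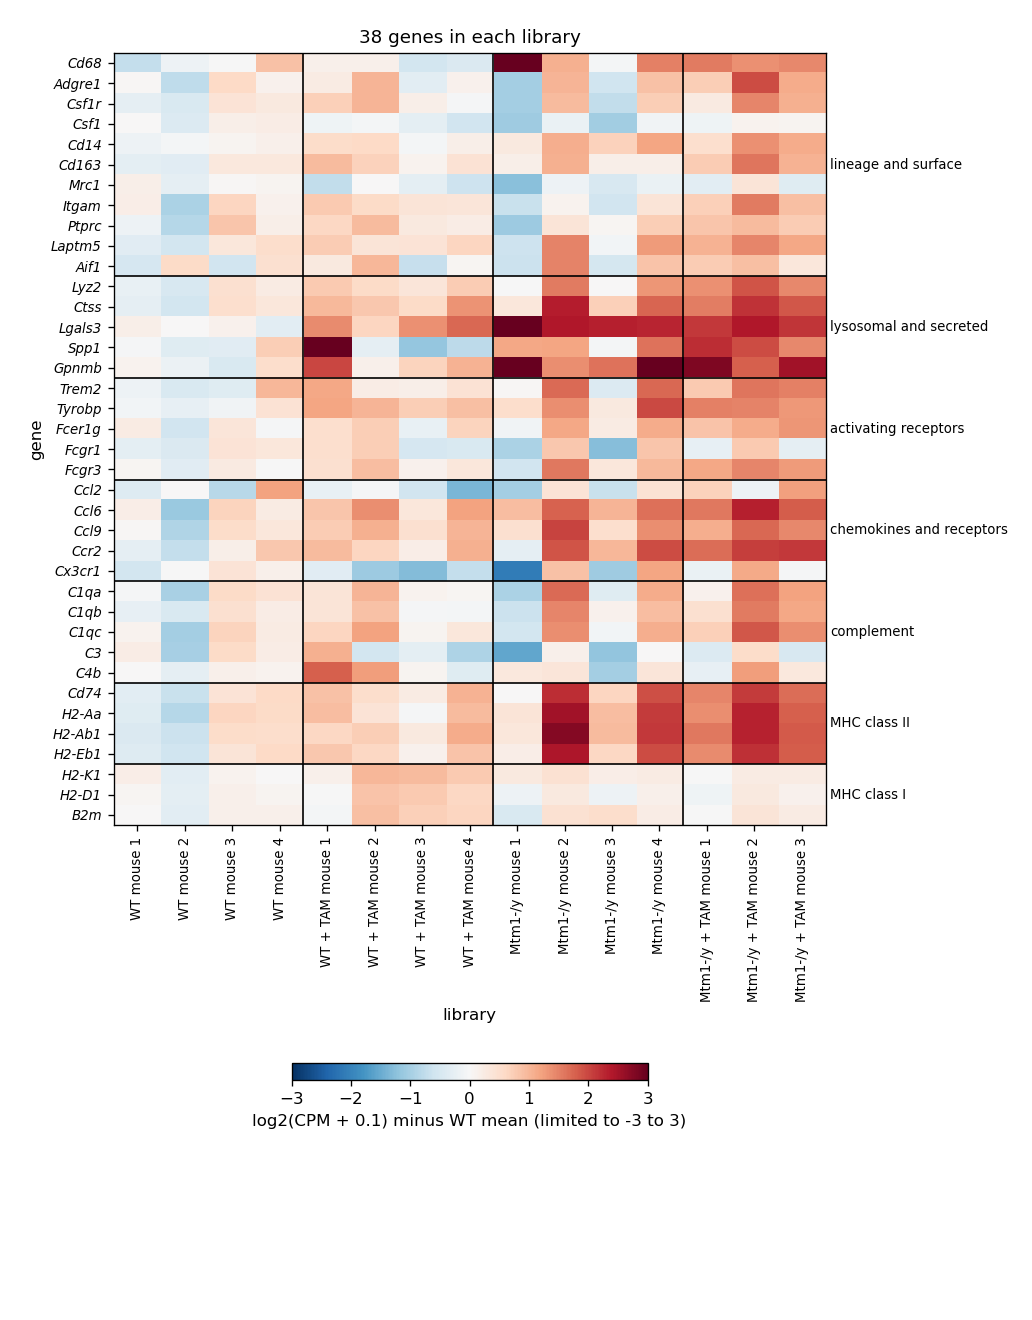
Each cell is log2(CPM + 0.1) of a gene (row) in a library (column) minus the mean of the 4 WT libraries, limited to -3 to 3, with genes ordered by role and groups separated by vertical lines. The 4 class II rows are darkest in Mtm1-/y mice 2 and 4 and in the 3 treated mutants, and the class I rows in WT + TAM mice 2 to 4.

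The class II genes encode the invariant chain (*Cd74*), the α and β chains of the I-A molecule (*H2-Aa* and *H2-Ab1*) and the β chain of I-E (*H2-Eb1*). They stood at similar positions in each library. *H2-Ab1* (chr17:34257689-34269419) was at 4.16, 3.59, 8.36 and 8.15 CPM in the WT mice, 8.74, 9.58, 6.92 and 12.3 CPM in WT + TAM, 7.16, 38.5, 11.1 and 25.1 CPM in Mtm1-/y, and 17.2, 28.3 and 20.5 CPM in Mtm1-/y + TAM. The highest untreated mutants were replicates 2 and 4, replicate 1 lay within the WT range, and replicate 3 lay between that range and replicate 4. *H2-Aa* was at 5.95, 4.23, 12.1 and 11.4 CPM in the WT mice, 14.7, 10.3, 7.55 and 14.9 CPM in WT + TAM, 10.1, 44.8, 14.8 and 33.1 CPM in Mtm1-/y, and 20.5, 38.5 and 27.1 CPM in Mtm1-/y + TAM. *H2-Eb1* was at 4.97, 4.31, 8.58 and 9.85 CPM in the WT mice, 11.5, 10.04, 7.11 and 11.9 CPM in WT + TAM, 7.503, 35.6, 10.2 and 25.7 CPM in Mtm1-/y, and 17.7, 30.0 and 23.2 CPM in Mtm1-/y + TAM. *Cd74*, shown because it completes the group, was at 12.3, 9.64, 20.6 and 23.3 CPM in the WT mice, 28.4, 22.3, 18.3 and 32.2 CPM in WT + TAM, 15.7, 71.6, 24.1 and 59.4 CPM in Mtm1-/y, and 43.2, 66.8 and 49.9 CPM in Mtm1-/y + TAM. None of the 4 separated untreated mutants from WT without overlap, since replicate 1 of Mtm1-/y fell below the highest WT mouse in each. The log2FC was 1.75 ± 0.47 for *H2-Ab1* (adjusted p = 0.0128) and 1.61 ± 0.47 for *H2-Aa* (adjusted p = 0.0203). It was 1.51 ± 0.45 for *H2-Eb1* (adjusted p = 0.0216) and 1.37 ± 0.43 for *Cd74* (adjusted p = 0.0295). *H2-Ab1* was called in every fit that left out a library. The calls of *H2-Aa*, *H2-Eb1* and *Cd74* were lost without WT replicate 1, WT replicate 2 or Mtm1-/y replicate 2, and those of *H2-Eb1* and *Cd74* also without Mtm1-/y replicate 4, with adjusted p reaching 0.0667, 0.0707 and 0.0973.

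**Figure D2:**
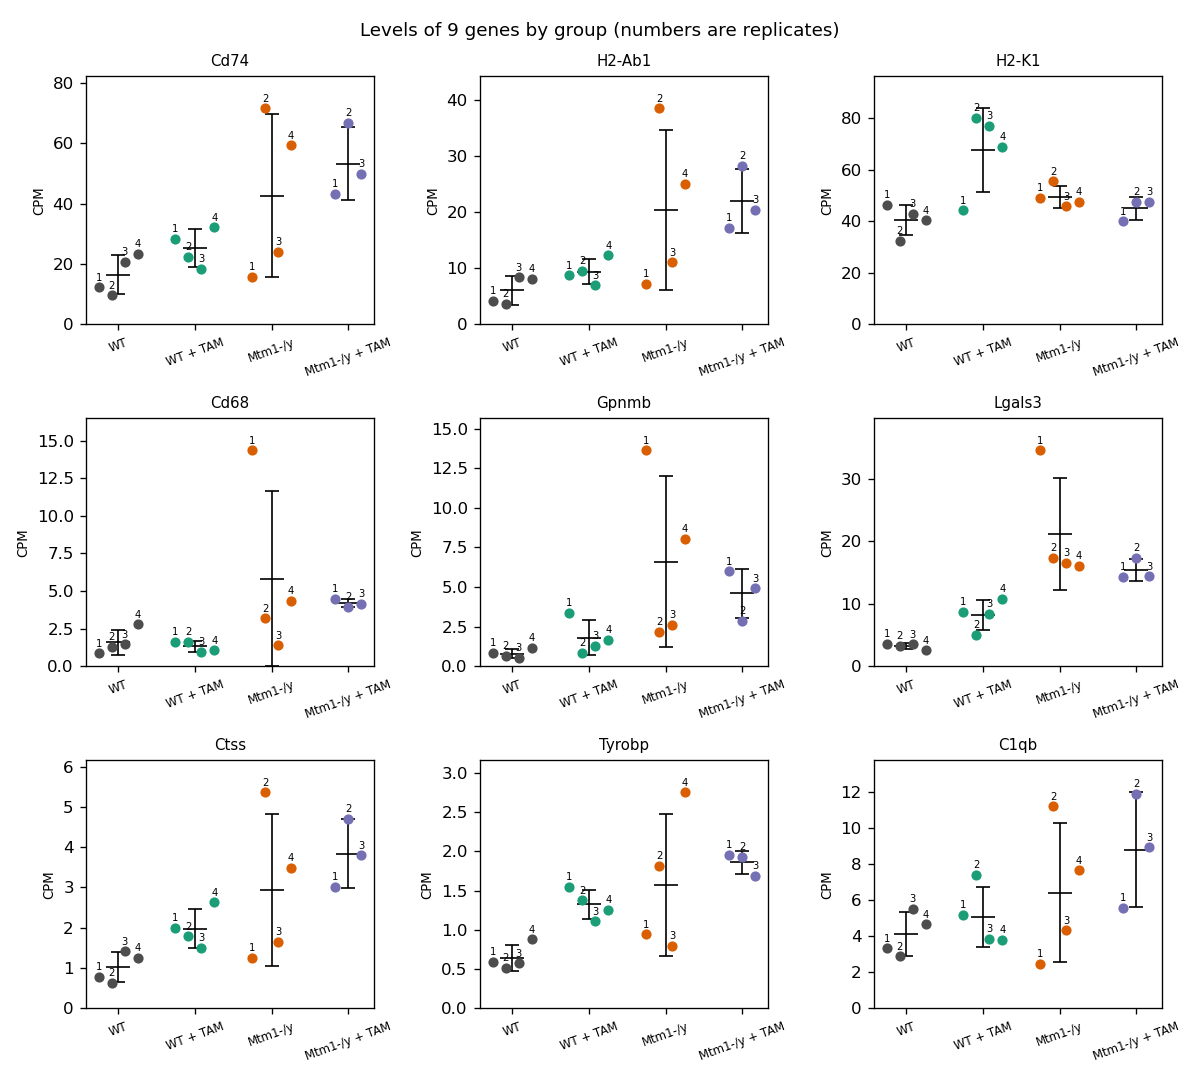
CPM of 9 genes in each library, with replicate numbers beside the points and the mean ± SD of each group as bars (n = 4, or 3 in Mtm1-/y + TAM). *Cd74*, *H2-Ab1*, *Ctss* and *C1qb* are highest among untreated mutants in replicate 2, *Tyrobp* in replicate 4, and *Cd68*, *Gpnmb* and *Lgals3* in replicate 1.

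Of the 5 lysosomal and secreted genes, *Lgals3*, *Gpnmb* and *Ctss* rose. *Lgals3* encodes galectin-3, a sugar-binding protein of activated macrophages that also marks damaged lysosomes, and *Gpnmb* encodes a transmembrane glycoprotein of lysosome-rich phagocytes. *Lgals3* (chr14:47367751-47386160) was at 3.61, 3.24, 3.49 and 2.55 CPM in the WT mice, 8.70, 5.04, 8.37 and 10.8 CPM in WT + TAM, 34.6, 17.4, 16.5 and 16.1 CPM in Mtm1-/y, and 14.3, 17.4 and 14.4 CPM in Mtm1-/y + TAM. Every untreated mutant exceeded every WT mouse, and the lowest mutant was at 16.1 CPM against a WT maximum of 3.61 CPM. *Gpnmb* (chr6:49036546-49070929) was at 0.836, 0.671, 0.531 and 1.14 CPM in the WT mice, 3.39, 0.866, 1.28 and 1.68 CPM in WT + TAM, 13.6, 2.18, 2.60 and 8.04 CPM in Mtm1-/y, and 5.99, 2.88 and 4.91 CPM in Mtm1-/y + TAM. Its mutant values also lay above all WT values but differed among themselves, with replicates 1 and 4 highest. *Ctss*, which encodes the protease cathepsin S that trims the invariant chain, was at 0.787, 0.632, 1.42 and 1.26 CPM in the WT mice, 2.00, 1.78, 1.495 and 2.63 CPM in WT + TAM, 1.25, 5.36, 1.65 and 3.49 CPM in Mtm1-/y, and 3.02, 4.71 and 3.80 CPM in Mtm1-/y + TAM. The log2FC was 2.72 ± 0.27 for *Lgals3* (adjusted p = 1.04e-05), 3.03 ± 0.60 for *Gpnmb* (adjusted p = 0.00217) and 1.52 ± 0.40 for *Ctss* (adjusted p = 0.0110). All 3 were called in every fit that left out a library. *Lyz2* had a log2FC of 0.85 ± 0.34 (adjusted p = 0.0710) and *Spp1*, encoding the secreted matrix protein osteopontin, of 1.07 ± 1.04 (adjusted p = 0.472). *Lyz2* was called without Mtm1-/y replicate 1 or 3, at adjusted p = 0.0245 without replicate 1, and *Spp1* without WT + TAM replicate 1, at 1.07 ± 0.35 (adjusted p = 0.0313).

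Of the 11 lineage and surface genes, *Cd68* and *Cd14* rose and 9 were not called. *Cd68*, which encodes a lysosomal membrane protein used as the general macrophage stain, was at 0.861, 1.30, 1.46 and 2.79 CPM in the WT mice, 1.63, 1.63, 0.965 and 1.07 CPM in WT + TAM, 14.4, 3.18, 1.40 and 4.37 CPM in Mtm1-/y, and 4.50, 3.94 and 4.15 CPM in Mtm1-/y + TAM. Its level in Mtm1-/y replicate 1 was over that of any other library, while replicate 3 lay inside the WT range. *Cd14*, the co-receptor for bacterial lipopolysaccharide, was at 0.738, 0.790, 0.885 and 0.938 CPM in the WT mice, 1.27, 1.32, 0.796 and 0.953 CPM in WT + TAM, 1.05, 1.89, 1.40 and 2.01 CPM in Mtm1-/y, and 1.22, 2.30 and 1.94 CPM in Mtm1-/y + TAM. Here the 4 mutants all exceeded the 4 WT mice. *Csf1*, the growth factor on which macrophages depend, was at 10.2, 7.504, 11.5 and 11.7 CPM in the WT mice, 9.19, 9.68, 8.25 and 6.75 CPM in WT + TAM, 4.76, 8.75, 4.83 and 9.29 CPM in Mtm1-/y, and 9.22, 10.8 and 10.7 CPM in Mtm1-/y + TAM. The log2FC was 1.87 ± 0.57 for *Cd68* (adjusted p = 0.0238), 0.92 ± 0.27 for *Cd14* (adjusted p = 0.0167) and -0.57 ± 0.22 for *Csf1* (adjusted p = 0.0572). Without Mtm1-/y replicate 1 the value of *Cd68* was 0.90 ± 0.38 (adjusted p = 0.0893), and it also lost its call without WT replicate 1, 2 or 3, at adjusted p of at most 0.0893. *Cd14* lost it without Mtm1-/y replicate 4 (adjusted p = 0.0540), and *Csf1* was called lower without WT replicate 2, Mtm1-/y replicate 2 or Mtm1-/y replicate 4, the lowest adjusted p being 0.0197.

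The other lineage genes ranged in log2FC from -0.48 to 0.72. These were *Adgre1* (F4/80, 0.26 ± 0.49), *Csf1r* (the receptor for CSF1, 0.19 ± 0.43), *Cd163* (the haemoglobin scavenger receptor, 0.43 ± 0.27) and *Mrc1* (the mannose receptor CD206, -0.48 ± 0.24). The remainder were *Itgam* (CD11b, -0.27 ± 0.40), *Ptprc* (CD45, 0.06 ± 0.39), *Laptm5* (a lysosomal protein of leukocytes, 0.72 ± 0.40) and *Aif1* (IBA1, 0.61 ± 0.67). *Csf1r*, shown because it is carried by nearly all macrophages, was at 5.06, 4.42, 8.18 and 7.48 CPM in the WT mice, 10.1, 12.4, 6.87 and 5.95 CPM in WT + TAM, 2.93, 11.9, 3.62 and 10.2 CPM in Mtm1-/y, and 7.36, 16.9 and 12.8 CPM in Mtm1-/y + TAM. Mtm1-/y replicates 1 and 3 lay below every WT mouse for *Csf1r* and replicates 2 and 4 above every WT mouse. Across the 38 genes, replicate 2 was the highest untreated mutant for 23, replicate 4 for 11, replicate 1 for 3 and replicate 3 for 1. Over all tested genes these shares were 23.2%, 19.7%, 34.3% and 22.8%. The 3 genes highest in replicate 1 were *Cd68*, *Lgals3* and *Gpnmb*. In the same library *Ctsl*, encoding the lysosomal protease cathepsin L, was at 598 CPM against 200.1, 143 and 216 CPM in replicates 2 to 4, and the neutrophil gene *S100a8* was at 2.80 CPM against at most 0.443 CPM in those replicates. Whether those levels bear on the 3 genes was not tested.

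Among the activating receptors and their adaptors, *Tyrobp* was called. It encodes DAP12, the signalling partner of TREM2 and related receptors, and was at 0.590, 0.513, 0.575 and 0.880 CPM in the WT mice, 1.55, 1.38, 1.11 and 1.26 CPM in WT + TAM, 0.941, 1.81, 0.794 and 2.75 CPM in Mtm1-/y, and 1.96, 1.93 and 1.69 CPM in Mtm1-/y + TAM. *Fcgr3*, a receptor for the constant part of antibodies, was at 0.713, 0.513, 0.840 and 0.674 CPM in the WT mice, 0.980, 1.38, 0.748 and 0.877 CPM in WT + TAM, 0.418, 2.22, 0.889 and 1.43 CPM in Mtm1-/y, and 1.64, 2.04 and 1.79 CPM in Mtm1-/y + TAM. *Fcer1g*, the signalling chain of Fc receptors, was at 0.762, 0.395, 0.840 and 0.616 CPM in the WT mice, 0.940, 1.12, 0.531 and 1.07 CPM in WT + TAM, 0.575, 1.53, 0.762 and 1.48 CPM in Mtm1-/y, and 1.22, 1.48 and 1.74 CPM in Mtm1-/y + TAM. For *Fcgr3* and *Fcer1g*, replicates 2 and 4 of the untreated mutants were above all WT mice, and replicate 1 was below at least 3 of them. The log2FC was 1.29 ± 0.34 for *Tyrobp* (adjusted p = 0.0105), 0.83 ± 0.38 for *Fcgr3* (adjusted p = 0.113) and 0.72 ± 0.35 for *Fcer1g* (adjusted p = 0.131). *Trem2*, a lipid-sensing receptor of phagocytes, was at 1.13 ± 0.61, and *Fcgr1*, the high-affinity antibody receptor, at 0.19 ± 0.81. *Tyrobp* was called in every fit that left out a library, and *Fcgr3* (adjusted p = 0.0116) and *Fcer1g* (adjusted p = 0.0429) were called without Mtm1-/y replicate 1.

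Of the chemokines and their receptors, *Ccl6*, *Ccl9* and *Ccr2* rose. The first 2 encode chemokines of mouse myeloid cells and are neighbours on chromosome 11. *Ccl6* (chr11:83587882-83593087) was at 1.03, 0.355, 1.46 and 1.06 CPM in the WT mice, 1.63, 2.497, 1.13 and 2.17 CPM in WT + TAM, 1.75, 3.22, 1.91 and 3.00 CPM in Mtm1-/y, and 2.86, 4.87 and 3.37 CPM in Mtm1-/y + TAM. Every untreated mutant was above every WT mouse. *Ccl9* (chr11:83572919-83578636) was at 1.30, 0.632, 1.90 and 1.64 CPM in the WT mice, 2.25, 2.80, 1.83 and 2.67 CPM in WT + TAM, 1.83, 5.52, 1.84 and 3.51 CPM in Mtm1-/y, and 2.81, 4.45 and 3.62 CPM in Mtm1-/y + TAM. *Ccr2*, the receptor by which monocytes leave blood towards CCL2, was at 0.688, 0.474, 0.973 and 1.55 CPM in the WT mice, 1.72, 1.38, 0.989 and 1.87 CPM in WT + TAM, 0.680, 3.39, 1.78 and 3.60 CPM in Mtm1-/y, and 2.91, 3.86 and 4.00 CPM in Mtm1-/y + TAM. In both genes replicate 1 of the mutants fell inside the WT range, as did replicate 3 for *Ccl9*. The log2FC was 1.33 ± 0.35 for *Ccl6* (adjusted p = 0.0103), 1.20 ± 0.36 for *Ccl9* (adjusted p = 0.0208) and 1.34 ± 0.45 for *Ccr2* (adjusted p = 0.0334). *Ccl2* itself was at -0.52 ± 0.77 and *Cx3cr1*, the fractalkine receptor of resident macrophages, at 0.29 ± 0.69, neither called. *Cx3cr1* overlaps 9 other annotated genes, and reads of overlapping genes may have been lost or shared. The same limit holds for *Csf1r*, *Itgam* and *B2m*, which each overlap 1 other coding gene. *Ccl6* was called in every fit that left out a library. *Ccl9* was not called without WT replicate 1, WT replicate 2 or Mtm1-/y replicate 2, nor *Ccr2* without these or without WT replicate 3 or Mtm1-/y replicate 4, with adjusted p reaching 0.0801 and 0.105.

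No complement gene was called. *C1qb*, *C1qc* and *C1qa* encode the 3 chains of C1q and lie side by side on chromosome 4. *C1qb* (chr4:136880129-136886187) was at 3.32, 2.88, 5.53 and 4.66 CPM in the WT mice, 5.19, 7.39, 3.86 and 3.81 CPM in WT + TAM, 2.48, 11.2, 4.32 and 7.66 CPM in Mtm1-/y, and 5.56, 11.9 and 8.93 CPM in Mtm1-/y + TAM. *C1qc* was at 2.88, 1.26, 4.25 and 3.14 CPM in the WT mice, 4.21, 6.27, 2.80 and 3.39 CPM in WT + TAM, 1.78, 7.13, 2.51 and 5.71 CPM in Mtm1-/y, and 4.40, 9.90 and 7.07 CPM in Mtm1-/y + TAM. *C1qa* was at 3.20, 1.62, 4.91 and 4.49 CPM in the WT mice, 4.33, 6.78, 3.55 and 3.39 CPM in WT + TAM, 1.65, 10.8, 2.51 and 7.16 CPM in Mtm1-/y, and 3.60, 10.5 and 7.67 CPM in Mtm1-/y + TAM. For each chain, replicates 2 and 4 of Mtm1-/y were above every WT mouse and replicate 1 was below at least 3 of them. The log2FC was 0.64 ± 0.40 for *C1qb* (adjusted p = 0.246), 0.57 ± 0.45 for *C1qc* (adjusted p = 0.365) and 0.63 ± 0.54 for *C1qa* (adjusted p = 0.406). *C3*, the component on which all complement routes meet, was at -0.58 ± 0.51, and *C4b*, the fourth component, at 0.11 ± 0.46. *C4b* and *C4a* are near-identical copies, so reads may have been divided between them.

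Removal of Mtm1-/y replicate 1 raised the number of called genes from 13 to 16 of 38, where 29.6% of the 15286 genes then tested were called. *Laptm5* (adjusted p = 0.0341), *Lyz2*, *Fcer1g* and *Fcgr3* joined the list and *Cd68* left it. The median log2FC of the 38 rose from 0.68 to 0.94. *H2-Ab1* moved to 2.04 ± 0.41 (adjusted p = 0.00335), *Ctss* to 1.77 ± 0.36 (adjusted p = 0.00217) and *Ccr2* to 1.65 ± 0.34 (adjusted p = 0.00253). *Gpnmb* and *Lgals3* fell to 2.41 ± 0.52 and 2.37 ± 0.19 and stayed called. No complement or class I gene was called in this fit either. *C1qb* came closest, at 0.92 ± 0.35 (adjusted p = 0.0652).

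**Figure D3:**
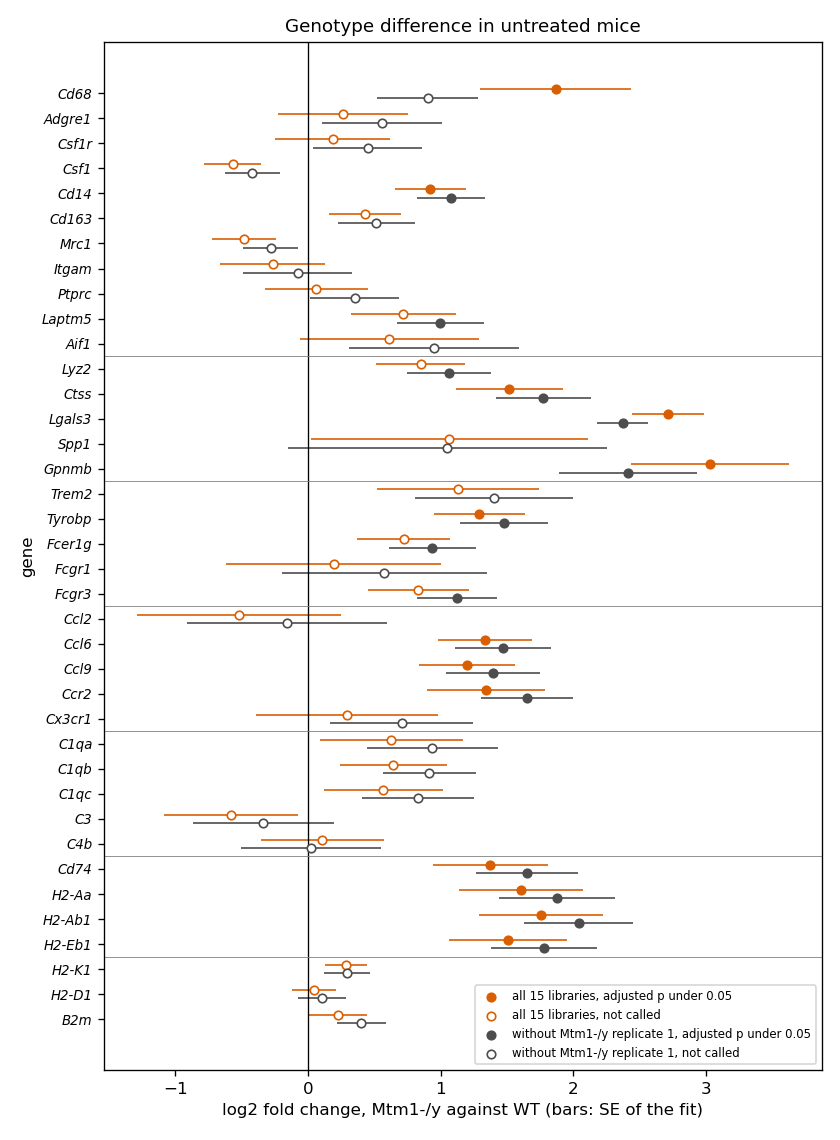
Log2 fold change of each gene in Mtm1-/y against WT, with bars for the standard error, in all 15 libraries (orange) and without Mtm1-/y replicate 1 (grey), and filled points for adjusted p under 0.05. Class II genes, *Ctss* and *Ccr2* lie farther right without that library, and *Cd68*, *Lgals3* and *Gpnmb* farther left.

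In mutants, tamoxifen was compared with no treatment to see whether these differences were smaller in treated mice. None of the 38 genes was called by edgeR between Mtm1-/y + TAM and Mtm1-/y, where 0.0129% of all tested genes were called. Under an unadjusted p of 0.05 there were 4 members (*Csf1*, *Cd163*, *Itgam* and *Adgre1*), all higher with tamoxifen, where 5.54% of all tested genes were under it, and DESeq2 and limma-voom called 0. The median log2FC of the 38 was 0.42, and 0.20 without Mtm1-/y replicate 1, beside the SD of 0.49 between mice. Of the 38, 33 were above 0 with all libraries, beside 49.4% of all tested genes. Every treated mutant was above every untreated mutant for *Itgam* and *Ptprc*, that is 2 of 38 genes, where 3.34% of all tested genes did so. *Itgam*, encoding an integrin chain of myeloid cells, was at 0.565, 0.197, 0.796 and 0.528 CPM in the WT mice, 0.899, 0.764, 0.651 and 0.648 CPM in WT + TAM, 0.261, 0.524, 0.286 and 0.649 CPM in Mtm1-/y, and 0.848, 1.61 and 0.981 CPM in Mtm1-/y + TAM, with a log2FC of 1.42 ± 0.40 (adjusted p = 0.855). The class II genes had log2FC of 0.32 ± 0.45 for *Cd74*, 0.17 ± 0.48 for *H2-Aa*, 0.11 ± 0.48 for *H2-Ab1* and 0.27 ± 0.46 for *H2-Eb1*. Without Mtm1-/y replicate 1 these were 0.05 ± 0.41, -0.10 ± 0.46, -0.17 ± 0.42 and -0.0023, so that 3 of the 4 were then below 0, and none was called in either fit. Their sum was 98.5 to 164 CPM in treated and 40.4 to 190.5 CPM in untreated mutants, so the 3 treated mice lay inside the untreated range. The log2FC was below 0 for *Lgals3* (-0.46 ± 0.27), *Gpnmb* (-0.55 ± 0.57) and *Cd68* (-0.48 ± 0.58), the 3 genes highest in Mtm1-/y replicate 1. Without that replicate these values were -0.12 ± 0.20, 0.07 ± 0.51 and 0.48 ± 0.39, so the direction of *Gpnmb* and *Cd68* rested on it. In all, 8 of the 38 changed sign without that library, the others being *Aif1*, *Fcgr1* and *Cx3cr1*.

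In wild type mice 1 of the 38 genes rose with tamoxifen, where 0.309% of all tested genes were called. This was *Lgals3*, at 1.36 ± 0.27 (adjusted p = 0.0452), and each of the 4 WT + TAM values given above exceeded the 4 WT values. *Lgals3* lost its call without any of the 4 WT replicates and without WT + TAM replicate 1, 3 or 4. It also lost its call without Mtm1-/y replicate 2 or 4 or any Mtm1-/y + TAM replicate. These last 5 libraries are in neither group and enter only through the filter, scaling, spread and adjustment shared by all libraries. Over all fits without a library its log2FC was 1.20 to 1.53 and its adjusted p 0.00214 to 0.166. Every WT + TAM mouse was also above every WT mouse for *Ctss* (0.95 ± 0.41, adjusted p = 0.395) and *Tyrobp* (1.03 ± 0.35, adjusted p = 0.257), so that 3 of 38 genes did so, against 4.22% of all tested genes. The median log2FC of the 38 was 0.51, with 32 above 0, beside 50.4% of all tested genes. Class II genes had log2FC of 0.49 to 0.63 in WT + TAM against WT and were not called.

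The class I genes differed from the class II genes in where they were high. *H2-K1* and *H2-D1* encode the heavy chains of the 2 classical class I molecules. *H2-K1* (chr17:33996017-34000347) was at 46.3, 32.3, 42.8 and 40.3 CPM in the WT mice, 44.2, 79.9, 77.1 and 68.8 CPM in WT + TAM, 49.0, 55.4, 45.8 and 47.4 CPM in Mtm1-/y, and 39.9, 47.4 and 47.5 CPM in Mtm1-/y + TAM. *H2-D1* (chr17:35262730-35267499) was at 46.5, 36.6, 49.5 and 47.5 CPM in the WT mice, 44.7, 81.1, 76.7 and 69.1 CPM in WT + TAM, 40.5, 54.7, 40.5 and 50.1 CPM in Mtm1-/y, and 40.9, 55.0 and 49.3 CPM in Mtm1-/y + TAM. *B2m* (chr2:122147686-122153083) was at 42.9, 33.9, 46.9 and 47.2 CPM in the WT mice, 40.6, 79.7, 69.2 and 65.9 CPM in WT + TAM, 30.8, 58.5, 61.3 and 49.8 CPM in Mtm1-/y, and 41.9, 55.8 and 50.5 CPM in Mtm1-/y + TAM. In each gene, WT + TAM replicates 2, 3 and 4 were the 3 highest of the 15 libraries, while WT + TAM replicate 1 lay within the WT range. With all libraries, tamoxifen in WT gave a log2FC of 0.74 ± 0.16 for *H2-K1* (adjusted p = 0.0669), 0.59 ± 0.17 for *H2-D1* (adjusted p = 0.174) and 0.58 ± 0.22 for *B2m* (adjusted p = 0.314). Without WT + TAM replicate 1, *H2-K1* was at 0.90 ± 0.12 (adjusted p = 0.00155) and *H2-D1* at 0.75 ± 0.14 (adjusted p = 0.0160), the 2 called members of that fit, and *Lgals3* was at adjusted p = 0.0586, where 0.716% of all tested genes were called. Without Mtm1-/y replicate 1, which is in neither group, *H2-K1* was called too (0.74 ± 0.16, adjusted p = 0.0469), where 0.935% of all tested genes were called. Reads of *H2-K1*, *H2-D1* and the related *H2-Q* genes can match more than 1 gene. *H2-Q7*, from the list of other antigen presentation genes, was at 0.418, 0.355, 0.398 and 0.352 CPM in the WT mice, 0.572, 2.14, 2.51 and 3.66 CPM in WT + TAM, 0.157, 0.322, 0.0953 and 0.201 CPM in Mtm1-/y, and 0.0530, 0.397 and 0.428 CPM in Mtm1-/y + TAM. It rose with tamoxifen in WT by 2.53 ± 0.50 (adjusted p = 0.0433), and its 3 high libraries were those of the class I genes.

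**Figure D4:**
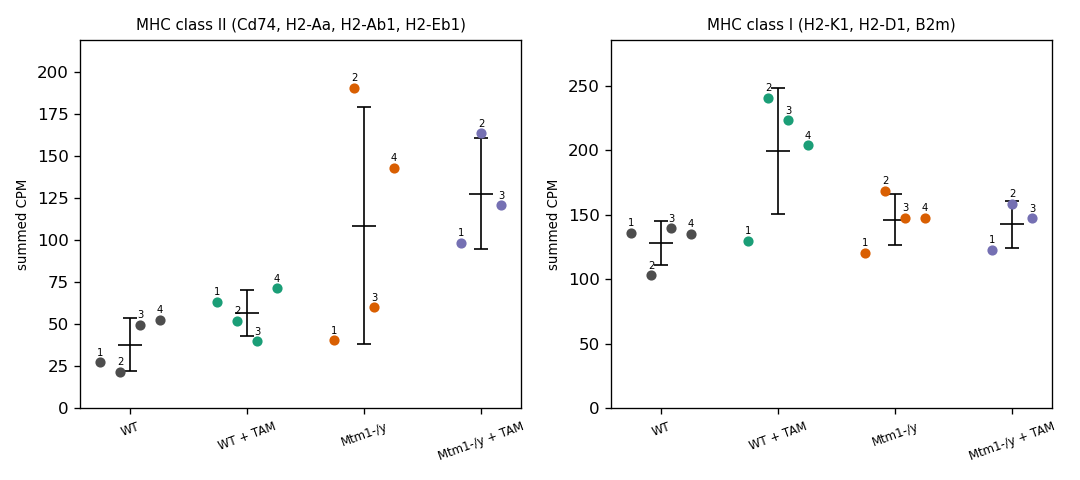
Summed CPM of the 4 class II genes (left) and of the 3 class I genes (right) in each library, with replicate numbers and the mean ± SD of each group (n = 4, or 3 in Mtm1-/y + TAM). Class II sums are highest in Mtm1-/y replicate 2 (190.5 CPM) and class I sums in WT + TAM replicate 2 (241 CPM).

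Among treated mice, Mtm1-/y + TAM was compared with WT + TAM. Of the 38 genes, *Lgals3* was higher (0.90 ± 0.27, adjusted p = 0.0295) and *H2-K1* lower (-0.59 ± 0.17, adjusted p = 0.0249), where 20.1% of all tested genes were called. Each of the 2 lost its call without WT + TAM replicate 2 or 3 or any Mtm1-/y + TAM replicate, at adjusted p of up to 0.113 for *Lgals3* and 0.102 for *H2-K1*. Without WT + TAM replicate 1, *H2-D1* was called lower as well, at -0.64 ± 0.15 (adjusted p = 0.00644) from -0.49 ± 0.18 (adjusted p = 0.0727), and *Spp1* was called higher, where 21.5% of all tested genes were called. *C3* and *C4b* changed sign in that fit and were called in neither. Every treated mutant was above every treated WT mouse for 16 of the 38 genes, where 17.2% of all tested genes did so. Between the untreated groups this held for 4 (*Cd14*, *Lgals3*, *Gpnmb* and *Ccl6*), where 14.8% of all tested genes did so. The 16 were *Cd68*, *Laptm5*, *Lyz2*, *Ctss*, *Lgals3*, *Tyrobp*, *Fcer1g*, *Fcgr3*, *Ccl6*, *Ccl9*, *Ccr2*, *Cx3cr1* and the 4 class II genes. The class II log2FC were 1.28 ± 0.49 for *H2-Aa*, 1.23 ± 0.48 for *H2-Ab1*, 1.23 ± 0.46 for *H2-Eb1* and 1.08 ± 0.46 for *Cd74*, with adjusted p of 0.0817, 0.0899, 0.0798 and 0.115. The median log2FC of the 38 was 0.76, beside 0.68 between the untreated groups. The fit shares its estimate of spread over all groups, and without Mtm1-/y replicate 1, which is in neither group, 12 of the 38 were called, where 26.8% of all tested genes were called. Those were 11 higher genes, including *Cd68* (1.68 ± 0.39, adjusted p = 0.00588), *Ccr2* (1.29 ± 0.33, adjusted p = 0.0106) and *H2-Eb1* (1.23 ± 0.39, adjusted p = 0.0378), and *H2-K1*. The other higher genes were *Lgals3*, *Cd14*, *Lyz2*, *Ctss*, *Fcgr3*, *Ccl6*, *H2-Aa* and *H2-Ab1*.

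*Spp1* depended on WT + TAM replicate 1. It was at 1.16, 0.908, 0.929 and 2.05 CPM in the WT mice, 22.7, 0.968, 0.482 and 0.648 CPM in WT + TAM, 2.77, 2.86, 1.14 and 3.90 CPM in Mtm1-/y, and 5.93, 4.92 and 3.42 CPM in Mtm1-/y + TAM. The log2FC of Mtm1-/y + TAM against WT + TAM was -0.38 ± 1.05 (adjusted p = 0.839) with all libraries and 2.81 ± 0.44 (adjusted p = 6.36e-04) without that replicate. Fibroblast and adipocyte marker sums were also highest there within the group, and their part in the *Spp1* value was not tested.

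**Figure D5:**
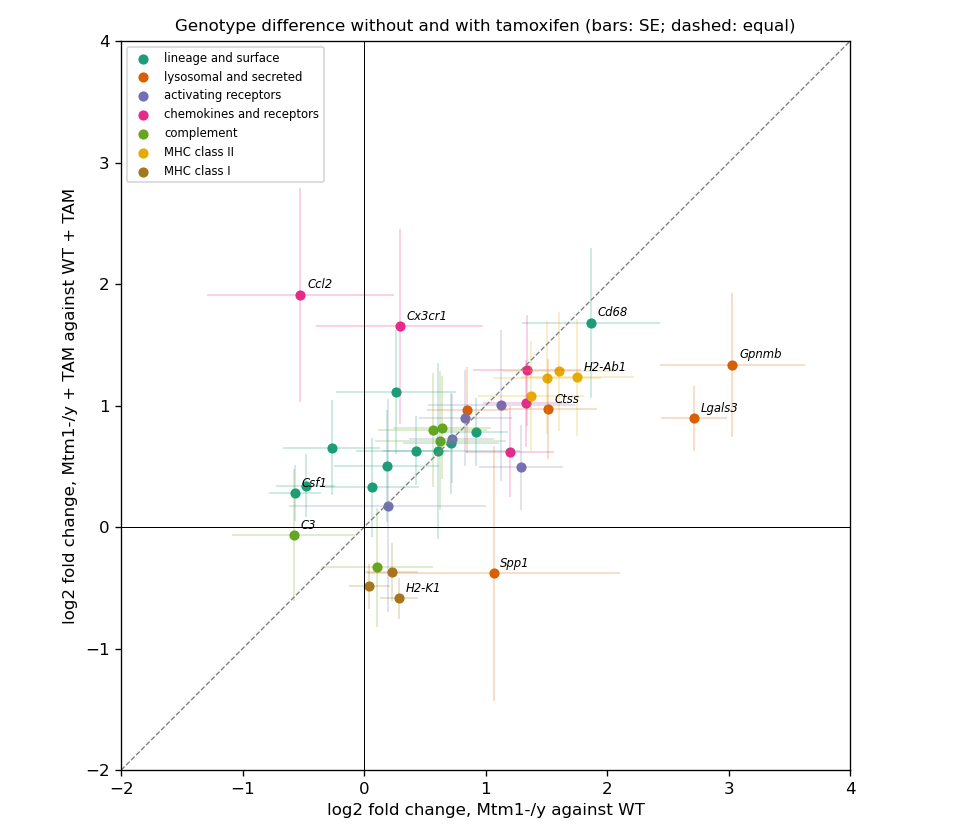
Each point is a gene, coloured by role, at its log2 fold change in Mtm1-/y against WT (horizontal) and in Mtm1-/y + TAM against WT + TAM (vertical), with bars for the standard errors and a dashed line where both are equal. *Lgals3* and *Gpnmb* lie below the line, at 2.72 against 0.90 and 3.03 against 1.34, and *H2-K1* lies below 0 on the vertical axis.

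The genotype difference without and with tamoxifen had the same sign in 76.3% of the 38 genes and in 73.4% of all tested genes, from groups that shared no library. Of the 38, 33 were above 0 without tamoxifen and 32 with it, 28 were above 0 in both and 1 was below 0 in both. Since most of the 38 were above 0 in each contrast, their share of equal signs cannot show agreement gene by gene. Both differences correlated across genes at r = 0.44 for the 38 and 0.72 for all tested genes. None of the 38 genes was called by edgeR for the interaction of genotype and tamoxifen, where 0% of all tested genes were called. Under an unadjusted p of 0.05 there were 5 of the 38 genes and 10.6% of all tested genes. DESeq2 called 1, *Lgals3*, at -1.84 (adjusted p = 0.00437), and limma-voom called 0. In edgeR *Lgals3* was at -1.82 ± 0.38 (adjusted p = 0.266), *Gpnmb* at -1.70 ± 0.84 (adjusted p = 0.490) and *H2-K1* at -0.87 ± 0.23 (adjusted p = 0.308). *H2-K1* was called without WT + TAM replicate 1, at -1.03 ± 0.17 (adjusted p = 0.0440), where 0.0451% of all tested genes were called. Without Mtm1-/y replicate 1, *Gpnmb* was at -1.08 ± 0.73 and *Lgals3* at -1.48 ± 0.27, neither called, and 9 of the 38 interaction values changed sign, while 6 did so without WT + TAM replicate 1. The class II interaction values ran from -0.52 to -0.28, with standard errors of 0.63 to 0.67, and from -0.80 to -0.55 without Mtm1-/y replicate 1.

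Other genes of these pathways gave a context for the 38. Of 31 tested other macrophage genes, 7 rose in Mtm1-/y against WT and 2 fell, so that 29.0% were called, beside 30.4% of all tested genes. *Tlr2* (2.08 ± 0.24), *Tlr4* (1.75 ± 0.22), both sensors of microbial and tissue debris, and *Cebpb* (2.22 ± 0.35), a transcription factor of myeloid and other cells, rose, while *Irf8* (-0.67 ± 0.19) and *Maf* (-0.54 ± 0.17), transcription factors of macrophages among other cells, fell. Of 12 other chemokines and receptors, *Cxcl10* (3.77 ± 0.46) and *Cx3cl1* (2.76 ± 0.58) rose and *Cxcl9* (-2.40 ± 0.51), *Cxcl14* (-0.63 ± 0.17) and *Cxcl12* (-0.81 ± 0.24) fell, or 41.7% of the list. *Cxcl10* was at no more than 0.197 CPM in the 8 WT and WT + TAM mice and at 1.02 to 3.07 CPM in the 7 mutants. *Cx3cl1*, fractalkine, the ligand of the receptor encoded by *Cx3cr1*, was at 4.76, 32.9, 7.05 and 23.95 CPM in the untreated mutants, with replicates 2 and 4 highest. Of 18 other complement genes, *Cd55* (0.87 ± 0.24) and *Itgb2* (1.14 ± 0.36) rose, which encode a shield against complement and the partner chain of CD11b, and *Masp1* (-1.46 ± 0.22), a lectin pathway protease, fell, or 16.7% of the list.

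Of 25 tested other antigen presentation genes, 5 rose in Mtm1-/y and 0 fell, or 20% of the list. *Lgmn* (0.93 ± 0.11) and *Ctsl* (1.37 ± 0.34) encode lysosomal proteases, and *H2-T23* (0.82 ± 0.18) a non-classical class I molecule. *H2-DMb1* and *H2-DMa* encode the 2 chains of the molecule that exchanges peptides on class II, and they completed the 5. Of 24 tested interferon-responsive genes, 0 rose and 7 fell, or 29.2%, led by *Ifit2* (-0.97 ± 0.21), *Ifit3* (-1.37 ± 0.33) and *Cd274* (-1.13 ± 0.28). Their median log2FC was -0.57, against 1.56 for the 4 class II genes and 0.23 for the 3 class I genes. In Mtm1-/y + TAM against WT + TAM, 3 of the 24 rose, *Ifi35* (0.80 ± 0.19), *Ifitm3* (0.80 ± 0.24) and *Ifi27* (0.63 ± 0.20), and *Ifit2* (-0.84 ± 0.23) fell. Among all tested genes 20.1% were called in that contrast.

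Markers of other cell types in the same muscles were examined beside these values. B cells also carry class II molecules. Of 5 tested B cell markers 0 rose and *Ighm* (-5.02 ± 0.66) fell. The sum of all 9 listed B cell markers was 54.7 to 74.4 CPM in WT and 0.941 to 6.29 CPM in Mtm1-/y. The sum was 5.23 to 13.7 CPM in the WT + TAM mice and 2.70 to 5.81 CPM in Mtm1-/y + TAM. Untreated WT stood above the other 3 groups in this sum, most of which was *Ighm* in WT, at 52.3 to 71.5 CPM. *Ighm* was at 2.32 to 9.27 CPM in WT + TAM and also fell with tamoxifen in WT (-3.77 ± 0.62, adjusted p = 0.0296). None of the T and NK cell markers passed the filter, their sum being at most 0.968 CPM in any library. Of 3 dendritic cell markers tested none was called. The sum of all 8 listed dendritic cell markers was 9.11 to 12.2 CPM in WT and 8.35 to 10.6 CPM in Mtm1-/y. Among all 15533 tested genes, 2320 were called lower and 2407 higher between Mtm1-/y and WT. Of 8 endothelial markers 6 fell and 0 rose, and of 5 satellite cell markers 4 fell and 0 rose. Of 8 fibroblast markers *Pdgfra* (0.76 ± 0.20) rose. Of 5 mast cell markers *Kit* (-1.78 ± 0.23) fell. Of 8 muscle fibre markers 3 fell. None of 5 red blood cell and 7 adipocyte markers was called. The 1 neutrophil marker that passed the filter, *S100a8*, was called higher (3.37 ± 1.16, adjusted p = 0.0402). It was at 2.80, 0.443, 0 and 0.291 CPM in Mtm1-/y and at 0.0442 to 0.197 CPM in WT. Replicate 1 was thus far the highest mutant, and replicate 3 lay below every WT mouse. What part these cell types have in the levels of the 38 genes was not tested.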

How the data were processed

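Libraries were made from total RNA of tibialis anterior muscle with a stranded mRNA kit and sequenced, 1 library per mouse. The authors deposited raw read counts per Ensembl gene, not normalized, with a column per mouse and no pooling. The builds mm10 and GRCm38 are listed in the submitters' processing notes, as are HTSeq 0.6.1p1, STAR 2.5.3a, Bowtie2 2.2.8 and cutadapt 1.10. What each tool did, the annotation release and the strand setting are not given in the sources used, so reads of overlapping or antisense genes and of near-identical copies may have been lost or shared. All 30672 identifiers matched GENCODE M21 (GRCm38), the source of symbols, coordinates and exon lengths.

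Samples were grouped from the labels. The main analysis used edgeR 4.0.16 (R 4.3.3) with filterByExpr (minimum count 10), TMM factors, and a quasi-likelihood fit of 4 group means to all 15 libraries (glmQLFit, robust, 11 residual degrees of freedom). P values were adjusted by Benjamini-Hochberg over all 15533 tested genes, and genes under 0.05 were called. CPM values were scaled by library size and TMM factor. The fit was tested on simulated counts. DESeq2 1.42.0 and limma-voom (limma 3.58.1) were among the alternatives. A count of 0 allows up to 3 counts, a limit that leaves the spread between mice aside.

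The 38 genes, their roles and the other lists were chosen with earlier results of these data known. Values in every library were given for the 3 genes of each role with the smallest p in Mtm1-/y against WT and for every gene called in a tamoxifen contrast or the interaction. From the other lists, the 3 called genes with the smallest p per direction were named. *Cd74*, *Csf1r*, *Itgam*, *Spp1* and *H2-Q7* were given by library, and *H2-DMa* and *H2-DMb1* were named, after their values were seen. The result of 1 marker list is not reported here.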

Additional observations from a re-analysis of the deposited data

Results flagged for a closer look

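In 114 sets of 4 libraries, a gene in a group each, 5 had a library whose gap to its nearest neighbour exceeded Dixon's critical share of the range for 4 values, and chance alone flags about 1 in 20 such sets. *Lgals3* in Mtm1-/y replicate 1 was at 34.6 CPM, against 16.1 to 17.4 CPM in the other 3. *Spp1* in WT + TAM replicate 1 was at 22.7 CPM, against 0.482 to 0.968 CPM. *Cd163* in Mtm1-/y replicate 2 was at 5.76 CPM, against 3.06 to 3.08 CPM. *C4b* in Mtm1-/y replicate 3 was at 1.02 CPM, below the 2.74 to 2.82 CPM of the others. *Trem2* in WT replicate 4 was at 0.498 CPM, against 0.118 to 0.172 CPM, a gene of few counts. Groups of 3 were not examined in this way. The cause of each was not tested.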

How the results depend on the processing

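The 13 of 38 genes called between Mtm1-/y and WT became 8 without the filter on low counts, where more genes were tested, and 7 to 16 when a library was left out. Relative log expression and upper-quartile factors, the stricter filter, DESeq2, limma-voom, the requirement of an absolute log2FC over 1 and leaving out Mtm1-/y replicate 1 and WT + TAM replicate 1 together kept the count within 1.5 times of 13. *Ctss*, *Lgals3*, *Gpnmb*, *Tyrobp*, *Ccl6* and *H2-Ab1* were called in every fit that left out a library, and the other 7 were lost in at least 1. Between Mtm1-/y + TAM and Mtm1-/y the count was 0 under every alternative run. Between WT + TAM and WT the single call became 0 without the filter, 0 in limma-voom, 3 in DESeq2, 0 to 2 without a library, and 4 with both doubted libraries left out. Between Mtm1-/y + TAM and WT + TAM the 2 calls became 0 with the log2FC requirement, 1 without the filter, 9 in DESeq2, 4 in limma-voom, 0 to 12 without a library and 11 without both doubted libraries. For the interaction the 0 calls became 1 in DESeq2, 0 to 1 without a library and 1 without both doubted libraries. *Spp1* in Mtm1-/y + TAM against WT + TAM changed from -0.38 to 1.61 in limma-voom, 0.72 with the replicate block, -0.78 to 2.81 without a library (2.81 without WT + TAM replicate 1) and 2.82 without both doubted libraries. Where a construction of the alternative does not give it, the cause was not tested.

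Whether replicate numbers pair the mice is not stated in the labels. Over 21 pairs of libraries with the same number, deviations from the group means correlated at r = -0.11 to 0.31. Of these, 6 were over 0.1. Pairs with other numbers correlated at r = -0.34 to 0.21, so both ends were higher among pairs with the same number. With the replicate block the counts of called genes in the 5 contrasts, in the order of the report, were 12, 0, 0, 4 and 0.

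*Ccl2*, *Fcgr1* and *Aif1* rest on fewer than 25 counts in every library, so that small differences in these were not detectable at this depth. P values rest on 3 or 4 mice per group. Leaving out mice of other groups moves calls through the shared filter, scaling, spread and adjustment.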
